A study of Rattus norvegicus with 6 samples.

Results

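The genes described here encode the receptors for glutamate and GABA, the main excitatory and inhibitory transmitters of the brain, in cultured rat oligodendrocyte precursor cells (OPCs). Members were found by gene name in the deposited table: all names that begin with Gria, Grin, Grik, Grid or Grm and go on with a subunit number, and all that begin with Gabr or Gabbr. The rule gave 48 of the 32883 genes listed. Of these, 3 are not reported here, and all counts of members below are over the other 45. They comprise 24 glutamate receptor genes and 20 GABA receptor genes. The remaining gene, Grid2ip, matched by its name but encodes a postsynaptic scaffold protein, so it is named apart.

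OPCs had been shaken off mixed glial cultures from the cerebral cortices of newborn (P0) Sprague Dawley rats, 2 rats per culture, after 7 days, and were then kept in serum-free Neurobasal medium with B27 and N2. The treated group received ZJU-37, a small-molecule inhibitor of the kinase RIPK1, at 5 µM, and the control group received the same volume of its solvent DMSO. The labels and the study's legend for these libraries give 36 h of treatment, whereas its Methods give a shorter time. Each group has 3 libraries, made from poly-A selected RNA with a kit that does not mark strand. The legend counts the replicates as plate wells, whereas the Methods call them 3 biological repeats per group. Nothing in the labels says that the libraries came from separate animals, so p-values measure the spread between these libraries only. The comparison asks which receptor transcripts differ between ZJU-37-treated and control OPCs.

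OPCs are unusual among glia in that they receive synapses from neurons and carry functional glutamate and GABA receptors. AMPA receptors (Gria1 to Gria4) carry the fast glutamate current, and those that contain the GluA2 subunit of Gria2 pass little calcium. Kainate receptors (Grik1 to Grik5) and NMDA receptors (Grin genes) are the other glutamate-gated channels, the delta receptors (such as that of Grid1) act mainly as synaptic adhesion receptors, and the metabotropic receptors (Grm genes) couple to G proteins. GABA-A receptors are chloride channels built from alpha, beta and gamma or other subunits, whereas GABA-B receptors (Gabbr1, Gabbr2) couple to G proteins.

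Library totals ran from 13935865 to 24097927 counts. A gene with 3 counts in a library would stand at 0.124 to 0.215 CPM (counts per library scaled to a common total), and such floors reflect counting error alone. Levels are given below as the deposited FPKM (fragments scaled by gene length and library total), which allow genes to be compared with each other, whereas log2 fold changes, their standard errors (SE) and adjusted p come from edgeR's quasi-likelihood test on the raw counts of all 14670 tested genes, with Benjamini-Hochberg adjustment. Genes called higher or lower had an adjusted p under 0.05. Libraries with the same replicate number deviated together (r = 0.39, 0.31 and 0.33 across genes), and calls that change with the replicate number as a block are given for both fits. Among the marker lists, the OPC genes Olig1, Olig2 and Sox10 stood above 100 FPKM in all 6 libraries, and 4 of 9 OPC markers were called higher and 4 lower. Of 12 myelinating oligodendrocyte markers 4 were called lower (7 with the block) and 0 higher, and their summed level was 4480 to 8380 FPKM with DMSO and 1750 to 3440 FPKM with ZJU-37. Neuron markers were also present, with sums of 210 to 300 FPKM and 188 to 274.0 FPKM, and 0 of 14 were called with edgeR (1, Syt1, at an unadjusted p under 0.05), although 3 (Syt1, Stmn2 and Slc32a1) were lower with the block. Of 10 astrocyte markers Sox9 was called higher and Aldoc lower, and with the block 2 were higher and 5 lower. No microglia or vascular marker was called with edgeR (0 at an unadjusted p under 0.05), and 5 of 12 microglia and 1 of 4 tested vascular and connective markers were lower with the block. Beside these counts, 9.43% of all tested genes were called higher and 5.58% lower (16.2% and 15.9% with the block). Astrocyte sums were 345 to 519 FPKM and 300 to 433 FPKM, microglia sums 1560 to 2800 FPKM and 1150 to 2380 FPKM, and vascular and connective sums 8.04 to 15.5 FPKM and 4.73 to 12.1 FPKM, with Cldn5 at 0. In bulk RNA, fewer cells of a type and less RNA per cell cannot be told apart, and the part of these marker differences in the results was not tested.

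Of the 45 members, 27 had a mean level of at least 1 FPKM over the 6 libraries and 6 reached 10 FPKM. Gria2 was the highest with a mean of 37.8 FPKM, followed closely by the kainate subunit Grik5 with 37.2 FPKM and the GABA-B subunit Gabbr1 with 32.3 FPKM. These top levels overlapped between libraries. Then came Gria3 with 17.1, Grik3 with 13.5 and Gria4 with 10.0 FPKM. The other members of the 10 highest were Grin1 with 7.30, Grid1 with 7.21, Gabra2 with 6.79 and Grik2 with 6.56 FPKM. Gabra6, which is known from cerebellar granule neurons, had 0 counts in every library, which allows at most 0.215 CPM. Gabrd, Gabre, Gabrr1, Gabrr3 and Grm6 had between 11 and 43 counts over all libraries. These 6 genes did not pass the filter on low counts, which left 39 members tested.

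**Figure D1:**
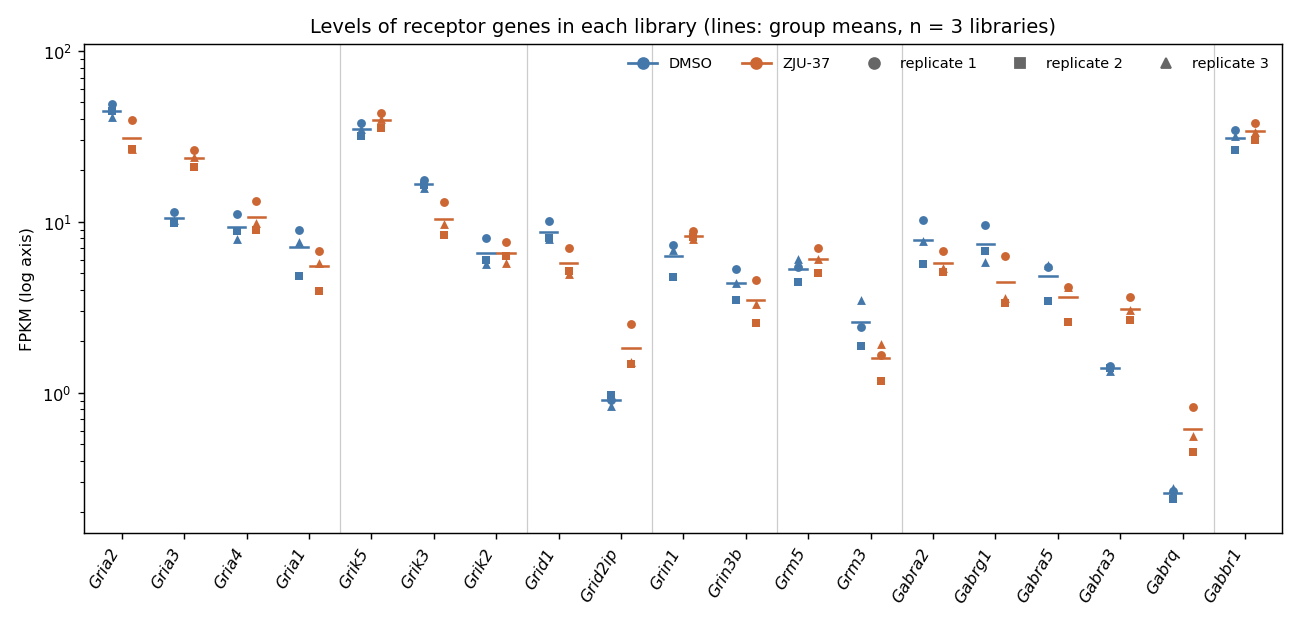
FPKM of the 19 named members in each library on a log axis, with DMSO in blue, ZJU-37 in orange, a marker shape per replicate number and short lines for the group means (n = 3 libraries). The 3 ZJU-37 points of Gria3, Gabra3, Gabrq, Grid2ip and Grin1 lie above all DMSO points, and those of Gria2, Grik3 and Grid1 lie below them.

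In the fit without the block, few members passed the threshold with ZJU-37, and they did so in both directions. Gria3, Gabra3 and Grid2ip were higher and Grik3 was lower, which is 3 higher and 1 lower of 39 tested members, or 7.69% and 2.56%. Without Grid2ip, 2 of 38 tested receptor genes were higher and 1 lower, or 5.26% and 2.63%. Over all tested genes 9.43% were called higher and 5.58% lower, so neither share of the members was above the background in this fit. With the replicate block 6 members (15.4%) were higher and 9 (23.1%) lower, against 16.2% and 15.9% of all tested genes. Of all calls, 62.8% were higher without the block and 50.4% with it. The median log2 fold change of the tested members was -0.12, and that of all tested genes was -0.03. The groups did not overlap in 8 of the 39 members (20.5%), fewer than the 35.2% of all tested genes. In 24 members neither fit gave a call, and their log2 fold changes ran from -0.95 to 0.67. On the summed FPKM scale the AMPA, kainate, NMDA, metabotropic, GABA-A, rho and GABA-B genes overlapped between groups, with ratios of ZJU-37 to DMSO from 0.817 for GABA-A to 1.10 for GABA-B.

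**Figure D2:**
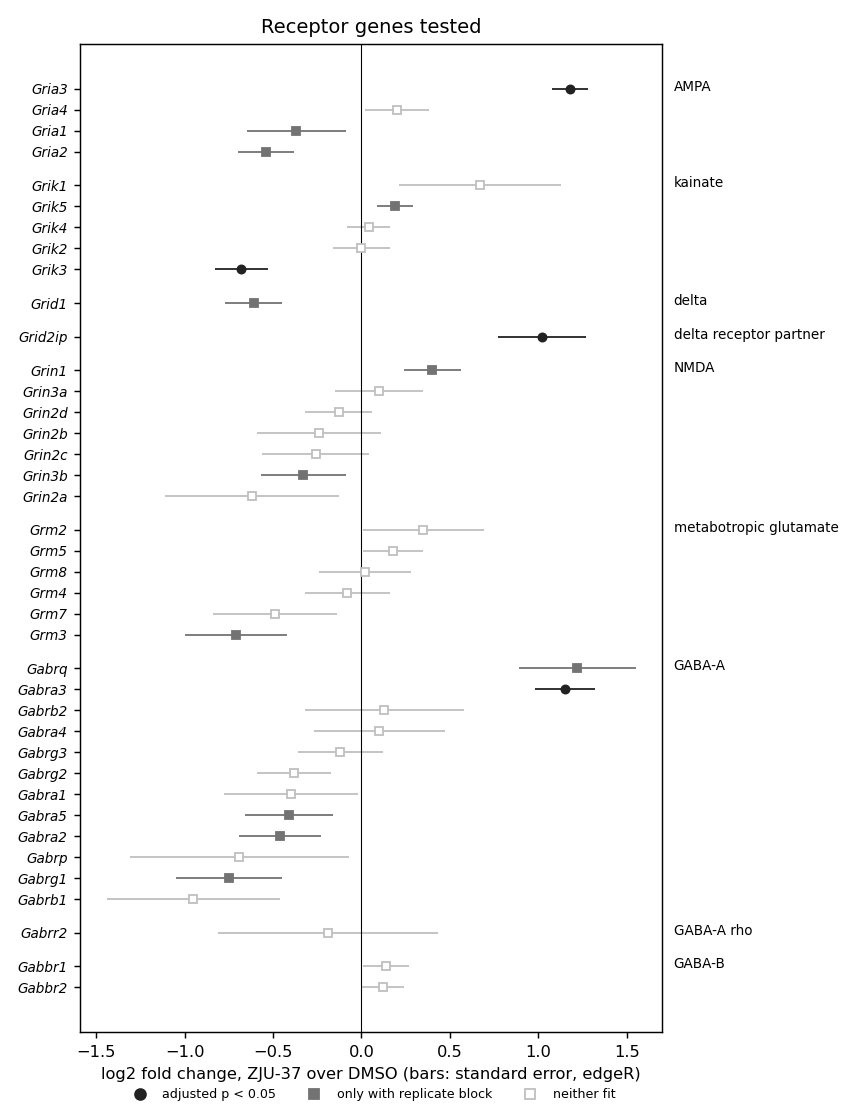
Log2 fold change (ZJU-37 over DMSO) with its standard error for the 39 tested members, grouped by family. Filled circles mark genes with an adjusted p under 0.05 in the fit without the block, grey squares those called with the replicate block but not without it (11 genes), and open squares the 24 genes called in neither of these 2 fits.

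Within the AMPA receptors, Gria3 rose in every fit and Gria2 fell in the fit with the block, with DESeq2 and without ZJU-37 replicate 1 but did not pass in the fit without the block, while the summed level of the 4 subunits differed by less than its spread. Gria3, which encodes GluA3 and is listed on the plus strand of chromosome X from 127562660 to 127829753, had 11.4, 9.89 and 10.3 FPKM in DMSO replicates 1, 2 and 3 and 26.4, 20.9 and 23.9 FPKM in ZJU-37 replicates 1, 2 and 3. Each treated library was thus well above each control. The level rose 2.26-fold (log2 fold change 1.18, SE 0.10, adjusted p = 5.97e-04). The differences within pairs 1, 2 and 3 were 1.19, 1.10 and 1.22 on the log2 scale, and the call held in every refit (adjusted p at most 0.00578). The build of the table's coordinates is not given in the sources used here.

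Gria2 is listed on the minus strand of chromosome 2 from 179584308 to 179704629. Its level was 49.0, 44.3 and 41.1 FPKM with DMSO and 39.3, 26.7 and 26.6 FPKM with ZJU-37. All treated libraries were below all controls, although ZJU-37 replicate 1 came close to DMSO replicate 3. The log2 fold change was -0.54 (SE 0.16, adjusted p = 0.0755), which was not past the threshold, and with the replicate block it was -0.56 with an adjusted p of 6.05e-04 (6.05e-04 to 0.232 over the alternatives, and 0.0205 with DESeq2). The pairs differed by -0.34, -0.71 and -0.62.

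Gria4 (GluA4) had 11.1, 8.83 and 7.94 FPKM with DMSO and 13.3, 8.94 and 9.89 FPKM with ZJU-37, and the groups overlapped (log2 fold change 0.20, SE 0.18, adjusted p = 0.532). Gria1 (GluA1) had 8.95, 4.79 and 7.59 FPKM with DMSO and 6.78, 3.94 and 5.75 FPKM with ZJU-37. These groups overlapped too, but each pair was lower with ZJU-37, and Gria1 passed only with the block (log2 fold change -0.37, adjusted p = 0.460, and 0.0140 with the block, 0.0140 to 0.764 over the alternatives).

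The make-up of the AMPA transcripts therefore differed between the groups at a like total. The 4 subunits summed to 71.7 ± 7.59 FPKM with DMSO and 70.8 ± 13.3 FPKM with ZJU-37 (SD, n = 3 libraries each). Gria2 made up 60.9%, 65.3% and 61.4% of that sum in DMSO replicates 1, 2 and 3 and 45.8%, 44.1% and 40.2% in the ZJU-37 replicates. The share of Gria3 was 14.1%, 14.6% and 15.4% with DMSO and 30.8%, 34.6% and 36.1% with ZJU-37. The share of Gria4 was also higher without overlap, at 12.9 ± 0.995% and 15.1 ± 0.388% (SD, n = 3 libraries each), and that of Gria1 overlapped. Neither the Gria2 nor the Gria3 share overlapped between the groups, and the gap between the group means was several times the SD of 0.624 to 2.86 percentage points. The ratio of Gria3 to Gria2 FPKM was 0.223 to 0.250 with DMSO and 0.672 to 0.897 with ZJU-37. These shares describe transcripts, not channels, and were given no test because the genes were picked with their values known.

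**Figure D3:**
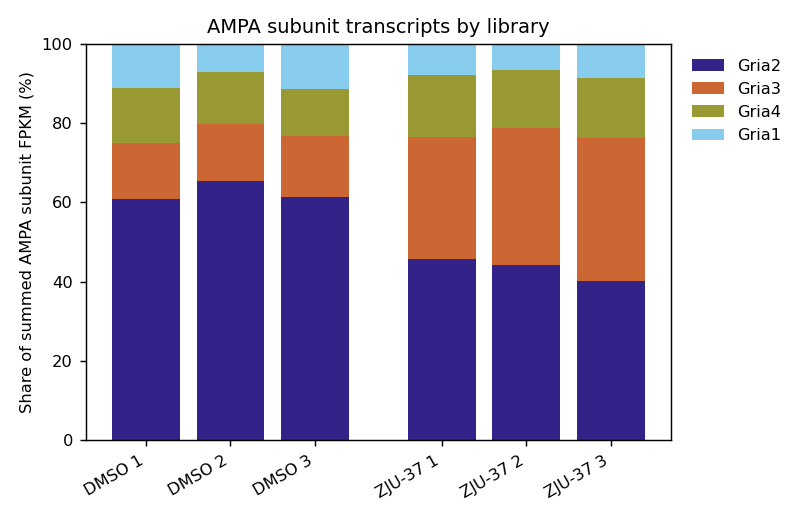
Share of each AMPA subunit gene in the summed AMPA FPKM, as stacked bars for each of the 6 libraries. Gria2 takes 60.9% to 65.3% of the bar with DMSO and 40.2% to 45.8% with ZJU-37, and Gria3 takes 14.1% to 15.4% and 30.8% to 36.1%.

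Among the kainate receptors, Grik3 fell, and Grik5 rose only in the fit with the block. Grik3 encodes GluK3, a low-affinity subunit, and is listed on the plus strand of chromosome 5 from 143500441 to 143715546. Its levels were 17.7, 16.4 and 15.7 FPKM with DMSO and 13.0, 8.37 and 9.77 FPKM with ZJU-37, with no overlap. It was 1.60-fold lower with ZJU-37 (log2 fold change -0.68, SE 0.15, adjusted p = 0.0286, and 5.13e-04 with the block, 5.13e-04 to 0.122 over the alternatives). With fewer libraries the call was lost, at an adjusted p of 0.0909, 0.0848 and 0.0703 without DMSO replicates 1, 2 and 3 and 0.0599 and 0.122 without ZJU-37 replicates 2 and 3. It held without ZJU-37 replicate 1 (0.00347).

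Grik5 encodes GluK5, a subunit that needs a partner of the Grik1 to Grik3 group to form a channel. It stood at 37.8, 31.7 and 35 FPKM with DMSO and 43.6, 35.3 and 40.0 FPKM with ZJU-37. The groups overlapped, and the gene passed only with the block (log2 fold change 0.19, SE 0.10, adjusted p = 0.277, and 0.0163 with the block, 0.0163 to 0.572 over the alternatives). In pairs 1, 2 and 3 the difference was 0.18, 0.17 and 0.20. Grik2 (GluK2) had 8.06, 5.98 and 5.67 FPKM with DMSO and 7.63, 6.29 and 5.72 FPKM with ZJU-37, with overlapping groups and an adjusted p of 0.995. Grik4 had means of 5.49 and 5.63 FPKM. Grik1 stayed under 0.5 FPKM. The kainate sum was 63.7 ± 5.12 FPKM and 62.5 ± 8.04 FPKM (SD, n = 3 libraries each), within which the share of Grik3 went from 26.1 ± 1.09% to 16.5 ± 1.58% and that of Grik5 from 54.7 ± 1.86% to 63.6 ± 2.33%.

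Grid1, which encodes the delta receptor GluD1, fell in the fit with the block, without the filter on low counts, with limma-voom, with DESeq2 and without ZJU-37 replicate 1, but did not pass in the fit without the block. Its levels were 10.1, 8.05 and 7.93 FPKM with DMSO and 7.01, 5.18 and 4.96 FPKM with ZJU-37, without overlap. The log2 fold change of -0.61 (SE 0.16) was just short of the threshold (adjusted p = 0.0532) and passed with the block (5.85e-04, 5.85e-04 to 0.180 over the alternatives) and with DESeq2 (0.0132). The pairs of Grid1 differed by -0.55, -0.61 and -0.66.

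Grid2ip, the scaffold gene, rose at a low level. It had 0.902, 0.967 and 0.841 FPKM with DMSO and 2.52, 1.47 and 1.51 FPKM with ZJU-37, so that the lowest treated library lay above the highest control. Grid2ip was 2.03-fold higher (log2 fold change 1.02, SE 0.25, adjusted p = 0.0373, and 0.00506 with the block, 0.00506 to 0.119 over the alternatives). Without DMSO replicates 1, 2 and 3 the adjusted p was 0.101, 0.1 and 0.119, and without ZJU-37 replicate 3 it was 0.0596. With limma-voom it was 0.0575. The call was also lost with libraries thinned to the smallest total (log2 fold change 0.93).

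NMDA receptor transcripts were dominated by Grin1, the GluN1 subunit that every NMDA receptor needs, and by the GluN3 genes, while each Grin2 gene had a mean under 1 FPKM. Grin1 had 7.36, 4.74 and 6.83 FPKM with DMSO and 8.86, 8.12 and 7.92 FPKM with ZJU-37. The treated libraries were all above the controls, but DMSO replicate 2 stood low, and the gene passed only with the block (log2 fold change 0.40, SE 0.16, adjusted p = 0.167, and 0.0404 with the block, 0.0404 to 0.260 over the alternatives). Grin3a (GluN3A) had means of 2.93 and 3.15 FPKM. Grin3b (GluN3B) had 5.28, 3.47 and 4.40 FPKM with DMSO and 4.55, 2.56 and 3.32 FPKM with ZJU-37. The groups overlapped, and the gene was lower with the block only (log2 fold change -0.33, adjusted p = 0.438, and 0.0296 with the block, 0.0296 to 0.765 over the alternatives). The span of Grin3b overlaps those of Tmem259 and Palm, which had 14082 and 11911 counts against its 1381, so its counts are uncertain. The largest mean of a Grin2 gene over all libraries was 0.818 FPKM, for Grin2d.

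Of the metabotropic receptors, 0 of 6 tested genes were called by edgeR without the block (1, Grm3, at an unadjusted p under 0.05). Grm5, a Gq-coupled receptor, was the highest of these at 5.45, 4.46 and 6.07 FPKM with DMSO and 7.06, 4.99 and 6.07 FPKM with ZJU-37, and the groups overlapped (log2 fold change 0.18, SE 0.17, adjusted p = 0.542). Grm3, a Gi-coupled receptor that is also strong in astrocytes, had 2.42, 1.87 and 3.48 FPKM with DMSO and 1.66, 1.17 and 1.93 FPKM with ZJU-37. It was lower in each pair, by 0.55 to 0.83 on the log2 scale, and passed with the block only (log2 fold change -0.71, SE 0.29, adjusted p = 0.159, and 0.00388 with the block, 0.00388 to 0.407 over the alternatives). The astrocyte marker sum was lower in each pair as well, and its part in the Grm3 difference was not tested.

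Among the GABA-A receptor genes Gabra3 rose, and its neighbour Gabrq had a like fold change at a much lower level. Gabra3 encodes the alpha3 subunit and is listed on the minus strand of chromosome X from 152414615 to 152642531. It had 1.44, 1.39 and 1.34 FPKM with DMSO and 3.61, 2.65 and 3.03 FPKM with ZJU-37. The control libraries were nearly identical, and the treated libraries were all well above them. The rise was 2.23-fold (log2 fold change 1.15, SE 0.17, adjusted p = 0.00484, at most 0.0259 over the alternatives, and kept in every refit). Gabrq encodes the theta subunit and had 7, 8 and 10 counts with DMSO and 29, 18 and 26 counts with ZJU-37. At these depths its log2 fold change of 1.22 (SE 0.33) had an adjusted p of 0.0550, and 0.0315 with the block (0.0315 to 0.167 over the alternatives).

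Most GABA-A genes lie in chromosomal clusters. The cluster on chromosome X holds Gabre, Gabra3 and Gabrq within 646 kb. Of all 498 tested genes on that chromosome, which also carries Gria3, 12% were called higher and 4.02% lower. On chromosome 14, Gabra2 (alpha2) and Gabrg1 (gamma1) were both lower with the block, at log2 fold changes of -0.46 and -0.75, whereas their neighbours Gabra4 and Gabrb1 had 0.10 and -0.95 and passed in neither fit. Gabrg1 had 9.63, 6.77 and 5.86 FPKM with DMSO and 6.33, 3.36 and 3.57 FPKM with ZJU-37, an overlap that came from ZJU-37 replicate 1 (adjusted p = 0.155, and 0.00112 with the block, 0.00112 to 0.372 over the alternatives). Gabra2 had 10.2, 5.68 and 7.72 FPKM with DMSO and 6.73, 5.07 and 5.36 FPKM with ZJU-37 (adjusted p = 0.247, and 0.0198 with the block, 0.0198 to 0.516 over the alternatives).

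On chromosome 1, Gabra5 and Gabrg3 lie together. Gabra5 (alpha5) had 5.43, 3.45 and 5.58 FPKM with DMSO and 4.15, 2.61 and 4.14 FPKM with ZJU-37. It was lower by 0.38 to 0.42 in each pair and passed only with the block (log2 fold change -0.41, SE 0.25, adjusted p = 0.360, and 0.0109 with the block, 0.0109 to 0.651 over the alternatives). Gabrg3 differed by -0.12 (adjusted p = 0.791). The annotated spans of both genes overlap that of Luzp2, which had 1264 counts in all, so part of their counts is uncertain. In the cluster on chromosome 10, 0 of 3 tested genes were called by edgeR in either fit, with 0 at an unadjusted p under 0.05 in the fit without the block.

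**Figure D4:**
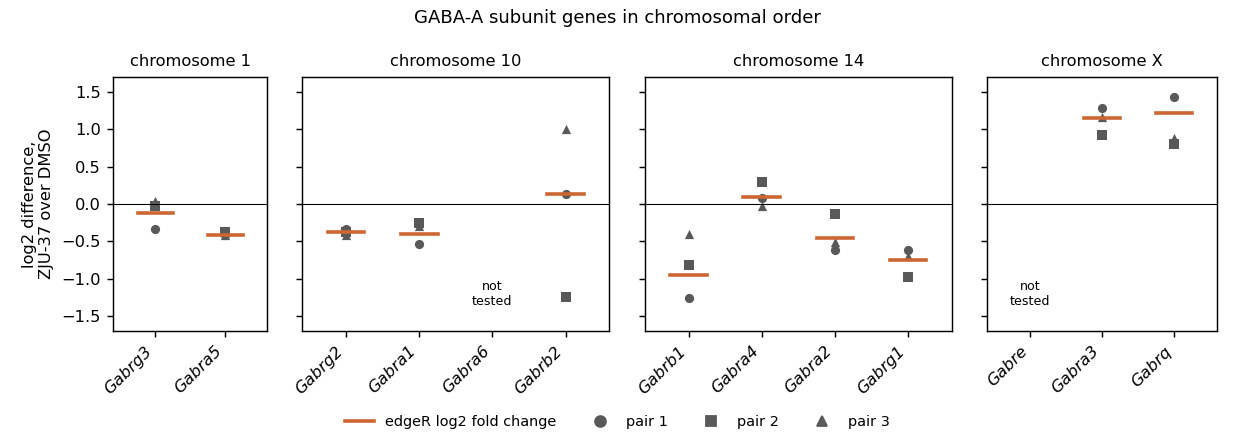
Log2 differences (ZJU-37 over DMSO) of the reported GABA-A genes in their order along 4 chromosomal clusters. Orange bars are edgeR log2 fold changes and grey markers the differences within replicate pairs 1, 2 and 3. The X-linked Gabra3 and Gabrq lie above 0 in all pairs, Gabra5 lies below 0 in all pairs, and Gabrb2 has pairs on both sides.

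The sums of the 15 GABA-A genes reported here overlapped between the groups, and in both groups replicate 1 was the highest and replicate 2 the lowest. They were 38.2, 24.4 and 29.6 FPKM in DMSO replicates 1, 2 and 3 and 31.0, 20.1 and 24.3 FPKM in ZJU-37 replicates 1, 2 and 3, so the ZJU-37 sum was the lower one in each pair. The summed neuron markers were also lower with ZJU-37 in each pair, and had replicate 1 highest and replicate 2 lowest in both groups, with 300, 210 and 255 FPKM and 274, 188 and 236 FPKM, and the part of neurons in the GABA-A levels was not tested. For GABA-B, Gabbr1 had 34.3, 26.2 and 31.8 FPKM with DMSO and 38.0, 30 and 33.5 FPKM with ZJU-37 (log2 fold change 0.14, SE 0.13, adjusted p = 0.542). Gabbr2, the obligate partner of Gabbr1 at the cell surface, had means of 3.5 and 3.80 FPKM (log2 fold change 0.12, SE 0.12, adjusted p = 0.590). Neither GABA-B gene was called with the block.

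Promoter sequences are shown for the called members that have an entry in the RefSeq table of build GRCr8 (31 of the 45 members matched), together with Gabrq, so that the X-linked neighbours can be set side by side. Each run holds the 250 bases before the annotated start, 5′ to 3′ on the gene's strand. Capitals mark the GC box GGGCGG and the TATA sequence TATAAA, searched on both strands.

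Gabra3, chrX:155543871-155544120, minus strand: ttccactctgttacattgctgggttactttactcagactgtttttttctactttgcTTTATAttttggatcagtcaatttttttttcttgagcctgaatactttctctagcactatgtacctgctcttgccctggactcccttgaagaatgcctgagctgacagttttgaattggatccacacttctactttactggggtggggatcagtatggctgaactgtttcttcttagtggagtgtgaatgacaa
Gabrq, chrX:155738186-155738435, plus strand: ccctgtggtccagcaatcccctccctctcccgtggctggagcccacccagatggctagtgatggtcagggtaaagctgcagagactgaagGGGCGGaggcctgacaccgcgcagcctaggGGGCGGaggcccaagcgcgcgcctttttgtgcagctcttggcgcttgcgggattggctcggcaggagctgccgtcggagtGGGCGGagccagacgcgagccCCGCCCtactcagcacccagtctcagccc
Grik3, chr5:143052192-143052441, plus strand: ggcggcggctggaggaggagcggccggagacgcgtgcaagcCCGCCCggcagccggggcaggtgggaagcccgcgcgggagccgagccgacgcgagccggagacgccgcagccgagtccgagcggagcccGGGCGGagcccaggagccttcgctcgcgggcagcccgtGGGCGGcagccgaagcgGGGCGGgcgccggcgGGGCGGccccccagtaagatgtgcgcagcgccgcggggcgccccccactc

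The 3 windows differ in composition. That of Gabra3 has 40.4% G and C, 0 CpG and 0 GC boxes, and its TATA match reads TTTATA on the printed strand. The window of Gabrq has 68.0% G and C, 17 CpG and 4 GC boxes, and that of Grik3 has 81.6% G and C, 41 CpG and 5 GC boxes. Over all 33469 promoters of the table the median was 51.2% G and C and 5 CpG, 30.5% held a GC box and 12.9% a TATAAA. Of the 31 matched members, 12 held a GC box and 2 a TATAAA in any of their entries. These member counts are per gene, whereas the shares over the table are per promoter. Gabra3 and Gabrq thus had like fold changes with different promoter letters, and the matches describe sequence only.

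Genes that act with these receptors were listed from general knowledge and with earlier results of these data known, so their shares only describe this list. Of the 62 listed, 56 were found in the table and tested. Of these 6 (10.7%) were called higher and 6 (10.7%) lower, beside 9.43% and 5.58% of all tested genes. With the block 14 (25%) were higher and 12 (21.4%) lower, beside 16.2% and 15.9%. Both kainate auxiliary subunits rose, and 2 of 10 AMPA auxiliary subunits rose, or 4 of 10 with the block. Neto1, which slows kainate receptor kinetics, had 11.8, 10.2 and 9.91 FPKM with DMSO and 26.2, 18.6 and 20.2 FPKM with ZJU-37 (2.04-fold, log2 fold change 1.03, SE 0.14, adjusted p = 0.00366). Neto2 had 15.5, 10.4 and 11.6 FPKM and 25.8, 24.3 and 23.8 FPKM (1.98-fold, log2 fold change 0.99, SE 0.15, adjusted p = 0.00614). In both genes every treated library was above every control, and the calls held in every refit.

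The AMPA auxiliary genes that rose were Cacng8 and Cnih2. Cacng8 encodes the TARP gamma-8 and had 4.46, 4.47 and 4.25 FPKM with DMSO and 8.98, 6.85 and 9.63 FPKM with ZJU-37 (1.94-fold, log2 fold change 0.95, SE 0.16, adjusted p = 0.00977). Cnih2, a cornichon protein that aids AMPA receptor export, had 44.1, 36.4 and 42.7 FPKM and 81.7, 62.3 and 75.8 FPKM (1.79-fold, log2 fold change 0.84, SE 0.12, adjusted p = 0.00471). The span of Cnih2 overlaps that of Yif1a with 3784 counts, so its counts are uncertain in part. The TARPs Cacng7 and Cacng4 were at higher levels than Cacng8, with means of 67.8 and 42.0 FPKM in DMSO, and did not pass without the block, with log2 fold changes of 0.18 and 0.49 (adjusted p = 0.290 and 0.0609, and 0.0397 and 6.41e-05 with the block, up to 0.518 and 0.164 over the alternatives). Cacng4 also passed with DESeq2 and without ZJU-37 replicate 2.

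Of 20 scaffold and trafficking genes of glutamate receptors, 2 (10%) were called higher and 4 (20%) lower, and 7 (35%) and 5 (25%) with the block. Homer1, which links group I metabotropic receptors to the postsynaptic scaffold, had 22.1, 18.5 and 17.6 FPKM with DMSO and 13.9, 11.3 and 11.0 FPKM with ZJU-37 (1.60-fold lower, log2 fold change -0.68, SE 0.13, adjusted p = 0.0132, and 0.0583 without ZJU-37 replicate 3). Dlgap4 had 47.5, 39.1 and 36.5 FPKM and 25.7, 25.7 and 26.3 FPKM (1.58-fold lower, log2 fold change -0.66, SE 0.10, adjusted p = 0.00689). Pick1, which binds GluA2 and GluA3 tails, had 18.1, 15.3 and 17.3 FPKM and 13.6, 13.2 and 12.4 FPKM (1.29-fold lower, log2 fold change -0.37, SE 0.09, adjusted p = 0.0360). Its call was lost without DMSO replicate 1 or 3 (0.1 and 0.111) and without ZJU-37 replicate 1, 2 or 3 (0.0593, 0.0965 and 0.139). The 3 RNA editing enzymes, the 11 GABA-A scaffold genes, the 2 chloride cotransporters and Srr gave 0 calls by edgeR without the block. At an unadjusted p under 0.05 there was 1 (Clptm1) among the GABA-A scaffold genes and 0 among the others. With the block, 4 of the 11 GABA-A scaffold genes passed, 1 higher (9.09%) and 3 lower (27.3%), beside 16.2% and 15.9% of all tested genes.

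The largest change among the partner genes was that of Abat, which encodes the transaminase that breaks down GABA. It had 65.1, 53.5 and 57.2 FPKM with DMSO and 25, 22.4 and 25.7 FPKM with ZJU-37, so that the highest treated library lay far below the lowest control. Abat was 2.40-fold lower (log2 fold change -1.26, SE 0.09, adjusted p = 4.57e-04), and the call held in every refit. The GABA-synthesizing enzymes Gad1 and Gad2 had log2 fold changes of -0.29 and -0.61 (adjusted p = 0.570 and 0.0598) and passed with the block (0.00441 and 9.72e-04, up to 0.910 and 0.158 over the alternatives).

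**Figure D5:**
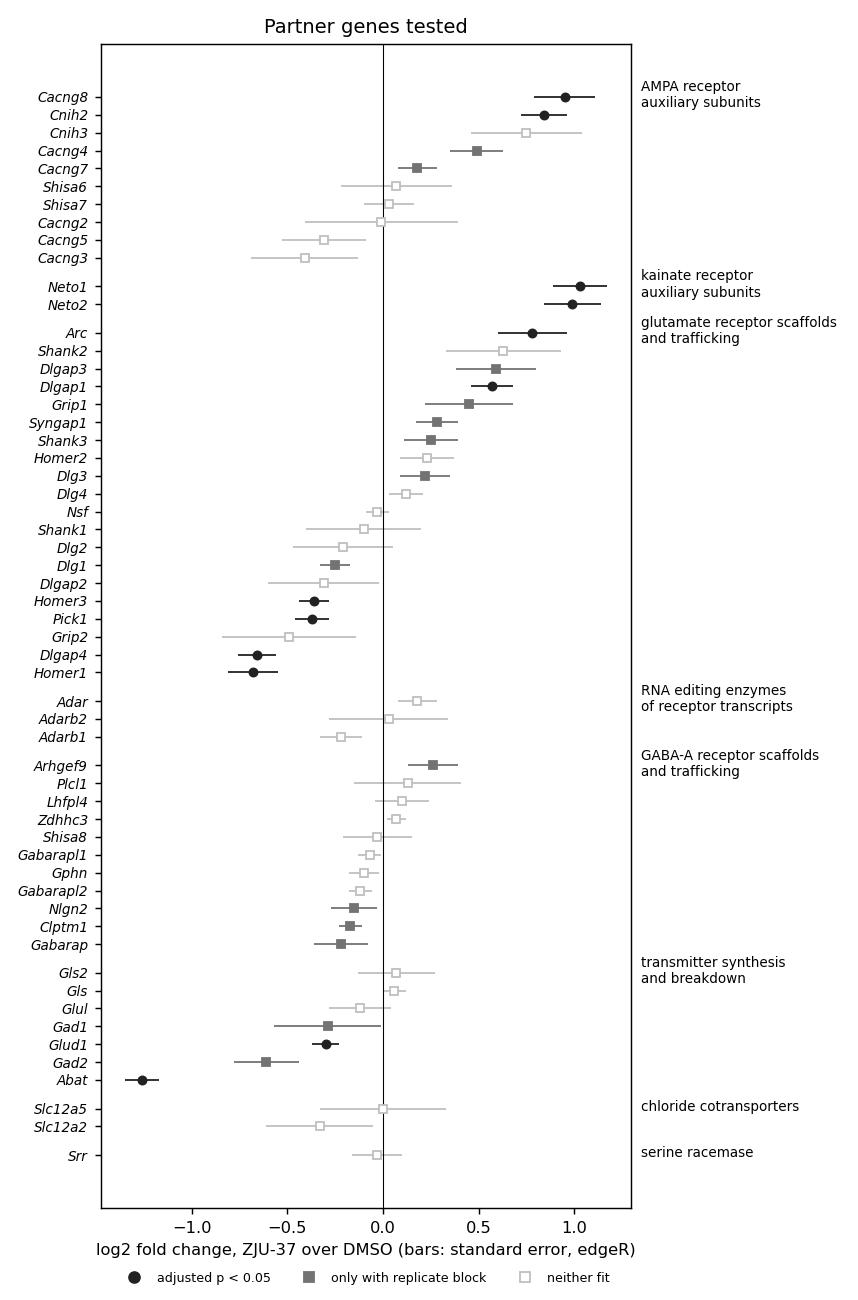
Log2 fold change (ZJU-37 over DMSO) with its standard error for the 56 partner genes, grouped by function, with symbols as for the receptor genes. Neto1, Neto2, Cacng8 and Cnih2 lie at 0.84 to 1.03, and Abat lies at -1.26.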

How the data were processed

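Raw counts per gene were deposited by the authors after alignment and counting. The submitters' processing notes list HISAT2 2.0.5, StringTie 1.3.3b and featureCounts 1.5.0, and the genome build is not given in the sources used here. FPKM, also deposited by the authors, correspond to counts over gene length and a library total between 0.979 and 1.03 times the sum of the counts. The table's other columns hold the authors' own group means, fold changes and p-values and were not used. Counts were filtered with filterByExpr, scaled by TMM (factors 0.981 to 1.04) and tested with edgeR 4.0.16 (glmQLFit, robust) under R 4.3.3, using every library. P-values were adjusted over 14670 genes by the Benjamini-Hochberg method. Library totals ran from 13935865 to 24097927.

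Alternatives were DESeq2 1.42.0, limma-voom (limma 3.58.1), other size factors, other filters (none, or 10 counts in every library), the replicate block, thinning to the smallest library, other thresholds, removal of genes that overlap another counted gene, and leaving out each library. The numbers were taken as pairs because each pair's deviations correlated above 0.1 (differently numbered libraries had r from -0.27 to -0.01). On simulated counts for this comparison (14543 genes, 200 changed), edgeR recovered 88.0% of log2 changes of 1.5 and 90.0% of changes of 2. Of its calls 8.72% were false. With the block these values were 83.0%, 85.0% and 16.4%. Both shares of false calls were above the adjusted p threshold of 0.05. How either fit performs on libraries that deviate in pairs, as these do, was not tested. The simulation therefore cannot decide which of the 2 fits is the more reliable here. Libraries of a group differed by a chi-square of 11.9 or more per degree of freedom and were all kept as separate samples.

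The members and lists were chosen with earlier results of these data known. Named were members called in either fit, the 10 highest by mean FPKM, the highest of each family, and the 4 partner genes with the largest called change in each direction. The partner and marker genes added beyond these were chosen after their values were seen. Promoter motifs were also chosen then. For 3 members found by the rule no result is reported here, and they were left out of counts, sums and figures of members but kept in the fits over all genes.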

Additional observations from a re-analysis of the deposited data

How the results depend on the processing

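Across the alternatives the 19 named members gave 265 log2 fold changes, of which 228 kept their direction and side of the threshold, 11 lost a call, 19 gained it and 7 changed sign. The sign changes were all of Grik2, which was near 0 throughout (0.03 with library size only, 0.02 with limma-voom, 0.00 with the block and without a filter on low counts, and -0.10 to 0.17 with each library left out). The 3 members called higher became 6 with the replicate block, 2 with limma-voom, 2 at an adjusted p under 0.01, and 2 to 3 with each library left out. With thinned libraries the count stayed at 3, with Gabrq in place of Grid2ip. The 1 called lower became 9 with the block, 3 with DESeq2, 2 with limma-voom, 2 without a filter on low counts, 0 at an adjusted p under 0.01, 0 at a log2 fold change of at least 1 in size, and 0 to 4 with each library left out (edgeR, 5 lower at an unadjusted p under 0.05 with all libraries and 2 to 9 with 1 left out). With DESeq2 the added genes were Gria2 and Grid1 (adjusted p = 0.0205 and 0.0132). The 6 partner genes called higher became 14 with the block and 1 at the fold limit. The 6 called lower became 12 with the block, 2 under 0.01, 1 at the fold limit, and 2 to 6 with each library left out. For all tested genes the count of calls was 2201, 4705 with the block, and 1306 to 1927 with each library left out. Fits with fewer libraries have fewer samples by construction, and the other causes were not tested. The filter on low counts removed 6 members with at most 43 counts over all libraries. Without it 5 of them entered the edgeR fit, where 0 were called (0 at an unadjusted p under 0.05), and Gabra6 had 0 counts.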
